A study of Mus musculus with 8 samples.

Results

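Lungs of SMRTmRID mouse embryos, shortened here to mRID, were compared with lungs of normal wild-type embryos, all from mothers on control chow. The comparison used 4 of the 8 arrays of the study, 2 of mRID RNA and 2 of wild-type RNA, and the arrays were chosen by their titles alone. All embryos were of the strain c57Bl6/J and were taken at E18.5, late in gestation. The other 4 arrays hold mRID and wild-type lungs of the same strain and age from mothers fed a diet with 0.15% PTU for 2 days from E16.5, and they enter only where that is said. The titles call the 2 arrays of a group technical replicates, so each group is 1 RNA sample of lung measured on 2 arrays. The labels do not say how many embryos gave that RNA. Each p-value below therefore covers error between arrays and compares 2 RNA samples. Variation between embryos and litters was not measured and cannot be told apart from the genotype.

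Nuclear receptors without their hormone, the thyroid hormone and retinoic acid receptors among them, bind the receptor interaction domains of corepressors and so bring a complex with the histone deacetylase HDAC3 to their target genes. The mRID mutation alters such domains, so that the receptors no longer recruit the corepressor through them. PTU is propylthiouracil, which blocks the making of thyroid hormone. In the late fetal lung the distal epithelium forms flat type I pneumocytes, which carry gas exchange, and type II pneumocytes, which make surfactant, while the conducting airways hold secretory, ciliated and basal cells. The series title names type I pneumocytes and thyroid hormone receptor repression beside the mutation.

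The arrays carried 25697 probes, of which 14527 had a detection p under 0.05 on both arrays of at least 1 of the 2 groups. Of these, 13468 were detected in both groups, 258 in mRID alone and 801 in wild type alone. With 1 probe for each gene, 10033 genes were tested. Values are normalized log2 signals, so a difference of 1 is a doubling, and each difference is mRID minus wild type with its standard error (SE). Over the tested genes the correlation was 0.997 between arrays of 1 RNA and 0.992 to 0.993 between an mRID and a wild-type array, and the median standard deviation between the arrays of a group was 0.07 in mRID and 0.08 in wild type. Defining lung markers were high in both groups. Sftpc, the surfactant protein C gene of type II cells, read 13.75 and 13.66 on the mRID arrays and 13.51 and 13.63 on the wild-type arrays. Nkx2-1, the transcription factor that specifies lung epithelium, read 12.11 and 12.11 on the mRID arrays and 12.17 and 12.06 on the wild-type arrays. The mutation itself was not checked here.

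Each gene was tested with limma, and it passed when its adjusted p was under 0.05 and its difference was at least 1.5-fold. Of the 10033 genes, 164 passed, which is 1.63%. Of these, 45 were higher in mRID, 0.449% of the genes, and 119 were lower, 1.19%. These shares are the ones to set beside each count of list members that passed. The larger differences were on the lower side: 32 genes were at least 2-fold lower and 2 were at least 2-fold higher. Over all genes the median difference was 0.01, and 52.4% of the genes were higher in mRID, so the excess of lower genes lay in the tail of the distribution. On the mRID arrays 55.9% and 56.1% of all probes were detected and the mean raw signal was 294 and 304, against 57.8% and 58.4% and 376 and 317 on the wild-type arrays, and the part of these in the lower calls was not tested. With median scaling in place of quantile normalization 198 genes passed, 86.9% of them lower in mRID, against 72.6% of the 164. In the authors' processed values, with an offset of 16 added here before log2, 80 genes passed, all of them among the 164. Of the 86 passed genes that met the naming rule given with the processing, 28 did not pass there, and 29 had differences smaller by over 1.5 times there. When the 2 arrays of an RNA were averaged and the 4 RNA samples of the study were fitted by genotype and diet, limma called 0 genes, with 248 at an unadjusted p under 0.05. On all 164 genes both mRID arrays lay on the same side of both wild-type arrays, which calls made from these same arrays nearly require. Of all genes, 26.3% had both mRID arrays above both wild-type arrays and 24.1% had both below. By size alone, 167 genes (1.66%) differed by at least 1.5-fold with the arrays of the groups apart. The SE of the 164 differences lay between 0.08 and 0.26. Of the 164, 10 were undetected on both mRID arrays, and the fold of such a gene is given as a lower bound. Where a passed gene had several probes, which held for 34 genes, all its probes moved the same way.

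**Figure D1:**
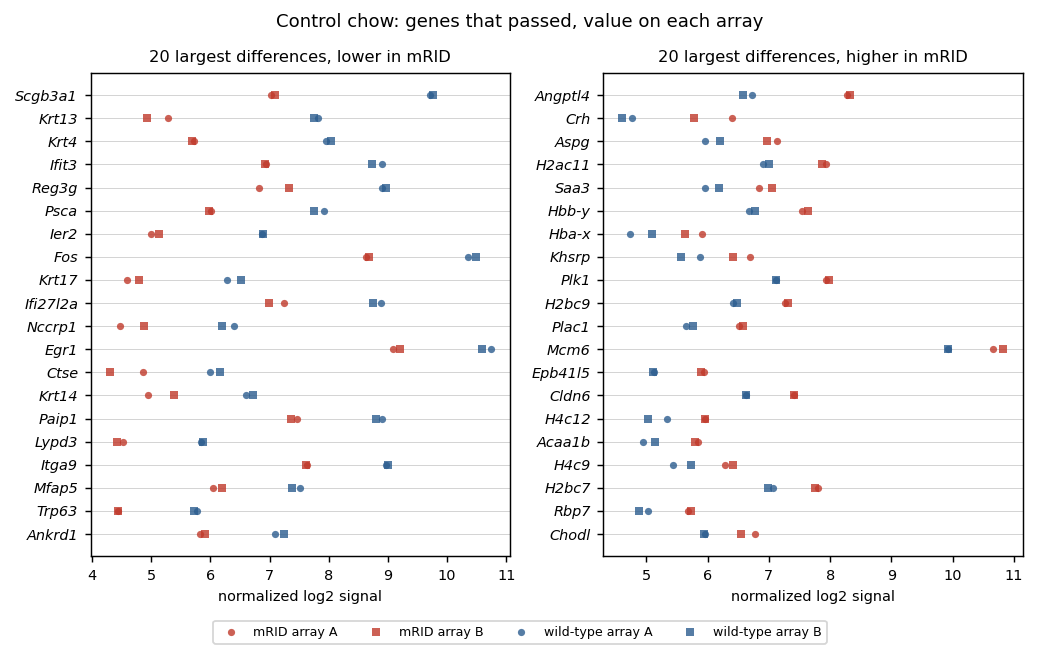
Normalized log2 signal (x axes) of the 20 genes with the largest lower and the 20 with the largest higher difference among those that passed on control chow, 1 row for each gene. Red symbols are the mRID arrays and blue symbols the wild-type arrays, circles array A and squares array B; in every row the red and blue symbols are apart, with the widest gap in Scgb3a1 and Krt13.

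The list of squamous and basal epithelium covers the stratified lining of the upper airways with its stem cells. Of its 18 tested members, 7 fell in mRID, against 1.19% of all genes, and 0 rose. The list median was -0.31 against 0.01 over all genes (-0.20 in the authors' processed values). Of the 18, 6 passed the detection filter through 1 group alone, Trp63 and Krt17 through the wild-type arrays, so the counts are a description. Krt13, a keratin of stratified epithelium, read 5.29 and 4.94 in mRID against 7.81 and 7.75 in wild type. It was 6.36-fold lower (difference -2.67, SE 0.12, adjusted p = 1.18e-06). Krt4, the partner keratin of Krt13, read 5.73 and 5.70 in mRID against 7.95 and 8.04 in wild type (difference -2.28, SE 0.09). The mRID arrays were further apart for Krt13 than for Krt4, and the genotypes did not overlap in either keratin. The surface antigen gene Psca fell by 1.83 on the log2 scale, and the basal cell keratins Krt17 (-1.71, detected on 1 of 2 mRID arrays), Krt14 (-1.49) and Krt15 (-1.08) fell too. Trp63, the transcription factor that maintains basal cells, read 4.44 and 4.44 in mRID, where it was undetected on both arrays, against 5.78 and 5.73 in wild type. It was at least 2.17-fold lower. The 11 other members did not pass, among them the cornified envelope genes Sprr1a (0.07), Sprr2a1 (0.27), Sprr3 (-0.31), Lor (0.16) and Ivl (-0.10). Krt5, the usual partner of Krt14, was detected on none of the 4 arrays, as were 7 other listed genes. In bulk RNA, fewer cells of a type and less RNA per cell cannot be told apart. The summed linear signal of the 18 members was 1047 and 1019 on the mRID arrays and 1892 and 1877 on the wild-type arrays. All 7 calls held when any 1 of the 4 arrays was left out.

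Of 14 tested genes of airway secretory cells 4 fell in mRID, against 1.19% of all genes, and 0 rose, with a list median of -0.37. Scgb3a1, a secretoglobin of these cells, had the most negative difference of all tested genes and read 7.03 and 7.09 in mRID against 9.72 and 9.76 in wild type. It was 6.42-fold lower (difference -2.68, SE 0.11, adjusted p = 7.64e-07), while its second probe gave a difference of -0.78. Reg3g, an antibacterial lectin, read 6.82 and 7.33 in mRID against 8.89 and 8.96 in wild type (difference -1.85, SE 0.14). The mRID arrays lay further apart than the wild-type arrays in Reg3g, and both were below wild type. Pon1, an esterase gene (-0.76), and Bpifb1, a secreted airway defence protein (-0.69), also fell. The main club cell genes did not pass: Scgb1a1, the club cell secretory protein, read 13.92 and 13.94 in mRID against 14.14 and 14.15 in wild type (difference -0.22, adjusted p = 0.153), and the club cell cytochrome Cyp2f2 differed by -0.40 (adjusted p = 0.0266), short of 1.5-fold. Bpifb1 no longer passed without wild-type array B (-0.56), without mRID array A (-0.65) or in the authors' processed values (-0.37). Motile cilia genes gave 0 passes in 14 tested members and a median of 0.00, with the ciliogenesis regulator Foxj1 at 0.01.

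Interferons act through transcription factors that bind the interferon-stimulated response element in the promoters of antiviral genes. Of 31 tested interferon response genes 9 fell in mRID, against 1.19% of all genes, and 0 rose. A negative difference was found in 28, against 4780 of the 10033 genes, and the median was -0.51. In 27 members both mRID arrays lay below both wild-type arrays, which held for 24.1% of all genes, and in 1 member both lay above, which held for 26.3% of all genes. Of 42 listed genes, 3 had no named probe and 8 more did not pass the detection filter, Ifit1, Mx1 and Cxcl10 among those 8. The upstream sequences of the 4 fallen members whose promoter windows held the element are shown here, since the element is what these genes are known to share. The 250 bases before the annotated start are given for each gene in the sense of the gene, from RefSeq on GRCm38.p6, with the element in capitals.
Ifit3, chr19:34583279-34583528, plus strand: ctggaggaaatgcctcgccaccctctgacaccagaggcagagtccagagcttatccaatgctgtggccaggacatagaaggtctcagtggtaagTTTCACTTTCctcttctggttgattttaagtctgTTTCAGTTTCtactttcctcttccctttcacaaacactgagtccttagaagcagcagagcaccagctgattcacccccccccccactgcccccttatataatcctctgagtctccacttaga
Rsad2, chr12:26456453-26456702, minus strand: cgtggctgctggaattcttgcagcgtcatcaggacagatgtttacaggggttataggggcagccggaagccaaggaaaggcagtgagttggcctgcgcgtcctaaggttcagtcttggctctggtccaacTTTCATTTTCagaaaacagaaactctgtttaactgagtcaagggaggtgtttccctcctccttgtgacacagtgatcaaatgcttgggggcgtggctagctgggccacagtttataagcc
Gbp3, chr3:142559794-142560043, plus strand: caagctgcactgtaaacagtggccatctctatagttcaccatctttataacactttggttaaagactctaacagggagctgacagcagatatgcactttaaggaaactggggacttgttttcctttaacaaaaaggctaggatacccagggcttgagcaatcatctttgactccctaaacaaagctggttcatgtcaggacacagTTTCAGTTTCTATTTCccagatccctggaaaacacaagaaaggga
Isg15, chr4:156200819-156201068, minus strand: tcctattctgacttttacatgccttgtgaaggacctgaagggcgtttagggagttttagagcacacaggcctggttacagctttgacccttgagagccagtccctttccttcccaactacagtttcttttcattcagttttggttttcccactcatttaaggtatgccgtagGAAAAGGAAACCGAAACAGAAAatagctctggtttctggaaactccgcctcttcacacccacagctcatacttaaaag
The element was searched as GAAA, any 2 bases and GAAA again, on both strands and with overlapping matches counted, in windows from 250 bases before to 50 after each start. Ifit3 held 2 matches, on the strand opposite the gene, 156 and 122 bases before its start. Gbp3 and Isg15 held 2 and 3 overlapping matches and Rsad2 held 1; a second annotated Gbp3 window held 0. Of the 5 fallen members with a promoter entry, 4 held the element, and Oasl2 did not. Of 22 tested members with an entry, 14 (63.6%) held it, against 3.66% of all tested genes. The list was drawn up from genes known to answer interferon, so this share describes the list and is not a result of the arrays.

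Ifit3, an interferon-induced antiviral protein, read 6.93 and 6.92 in mRID against 8.89 and 8.73 in wild type. It was 3.69-fold lower (difference -1.88, SE 0.09, adjusted p = 1.32e-06), and its other 2 probes gave -0.87 and -1.05. Ifi27l2a read 7.25 and 6.99 in mRID against 8.88 and 8.75 in wild type (difference -1.69). The groups were apart by well over the gap between the arrays of either. Rsad2, which encodes the antiviral enzyme viperin, read 8.29 and 8.56 in mRID against 9.66 and 9.72 in wild type (difference -1.27). The guanylate-binding protein gene Gbp3 differed by -1.16, the oligoadenylate synthase gene Oas2 by -1.21 and the antiviral GTPase gene Mx2 by -0.99, and all of them passed. Isg15, the ubiquitin-like modifier, read 5.26 and 5.25 in mRID against 5.99 and 6.0 in wild type (difference -0.74, SE 0.18, adjusted p = 0.0376), and it no longer passed when any 1 of the 4 arrays was left out. Oasl2 (-0.59) and Usp18 (-0.59), which removes ISG15 from proteins, stood just past the fold threshold. Oasl2 no longer passed without wild-type array B (-0.53), mRID array A (-0.59) or mRID array B (-0.59), and Usp18 without wild-type array A (-0.47) or mRID array A (-0.51). The transcription factors of the pathway did not reach 1.5-fold: Irf7 differed by -0.54, Stat2 by -0.52, Irf9 by -0.44 and Irf1 by 0.16. The count of fallen members was 15 with median scaling in place of quantile normalization, with 0 members higher. It was 6 in the authors' processed values, where Isg15 (-0.43), Oasl2 (-0.58) and Usp18 (-0.53) did not pass.

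**Figure D2:**
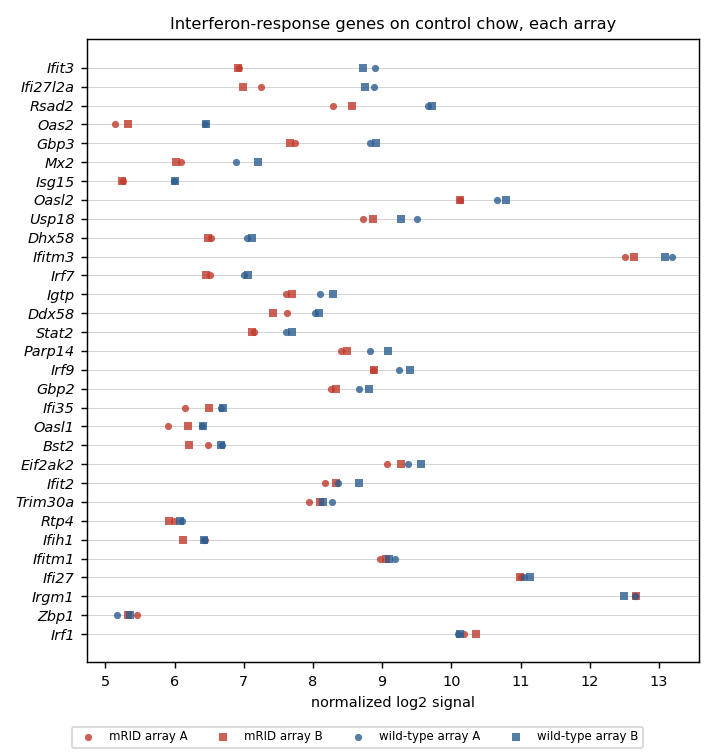
Normalized log2 signal (x axis) of the 31 tested interferon response genes on each control-chow array, ordered by difference with the most negative on top. Red symbols are mRID arrays and blue symbols wild-type arrays; the red symbols lie left of the blue ones in 27 of the 31 rows, and the gap closes down the plot.

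Immediate early genes, which cells transcribe within minutes of a stimulus and which include the AP-1 and EGR transcription factors, were tested next. Of 25 tested members 8 fell in mRID, against 1.19% of all genes, and 0 rose. The list median was -0.33. Fos, the AP-1 subunit, read 8.64 and 8.69 in mRID against 10.35 and 10.50 in wild type. It was 3.38-fold lower (difference -1.76, SE 0.09, adjusted p = 1.78e-06). Ier2 read 4.99 and 5.13 in mRID against 6.88 and 6.88 in wild type (difference -1.82), and Egr1, a zinc finger factor, read 9.09 and 9.20 in mRID against 10.74 and 10.60 in wild type (difference -1.52). The 3 genes were low on both mRID arrays and high on both wild-type arrays. Fosb was undetected on both mRID arrays and at least 1.78-fold lower. The matricellular gene Ccn1 (-0.85), the phosphatase gene Dusp1 (-0.78), the stress factor Atf3 (-0.72) and Zfp36 (-0.60), which encodes a protein that destabilises mRNA, were the other 4. Zfp36 fell short of 1.5-fold without wild-type array B (-0.55), and Atf3 in the authors' processed values (-0.41). Jun (-0.49) and Junb (-0.34), the partners of Fos, did not pass, and Egr2 (0.21), Socs3 (0.27) and Btg2 (0.52) were on the other side. The CArG box, the binding site of serum response factor, was found in the promoter window of 1 of the 6 fallen members with an entry, Zfp36. Egr1 and Ier2 had no entry and were not searched. Of 22 tested members with an entry 3 (13.6%) held the box, against 1.69% of all tested genes. The list was drawn up from known immediate early genes, so this share describes the list and is not a result of the arrays.

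Of 14 tested heart muscle genes 8 fell in mRID, against 1.19% of all genes, and 0 rose. The list median was -0.71. In the authors' processed values 6 fell and the median was -0.39, with Tnni3 (-0.47) and Casq2 (-0.30) short of 1.5-fold. Sln, sarcolipin of atrial muscle, read 6.97 and 7.10 in mRID against 8.18 and 8.39 in wild type (difference -1.25, SE 0.10). The others that fell were the atrial myosin light chain genes Myl4 (-1.05) and Myl7 (-0.80), the troponin genes Tnnc1 (-1.14) and Tnni3 (-0.86), cardiac actin Actc1 (-0.86), the myosin heavy chain Myh6 (-0.84) and the calcium store protein Casq2 (-0.62). Genes typical of the ventricle gave small values: Myl2 0.21, Myh7 -0.08, Myl3 -0.20. Myl4, which read 9.93 and 9.96 in mRID against 10.96 and 11.03 in wild type, was plainly present in both groups, while Nkx2-5, Nppb and Ryr2 were detected on none of the 4 arrays. The summed linear signal of the 14 members was 2575 and 2605 in mRID and 5162 and 4987 in wild type. In the mouse, heart-type muscle sheathes the large pulmonary veins, and the arrays cannot separate it from the heart itself. Of 13 skeletal muscle genes 2 fell, the myosin light chain gene Myl1 (-0.81) and the slow troponin gene Tnnt1 (-0.62), and the median was -0.27. Casq2 no longer passed without mRID array A (-0.57), and Tnnt1 without wild-type array B (-0.57) or mRID array A (-0.54), or in the authors' processed values (-0.49). The part of muscle tissue in the other differences was not tested.

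Of 16 tested type I pneumocyte markers 15 had both mRID arrays below both wild-type arrays, which held for 24.1% of all genes, and the median was -0.24. Most of these differences were small, and 1 member passed: Cyp2b10, a cytochrome P450, read 5.09 and 5.33 in mRID against 5.72 and 6.06 in wild type (difference -0.67, adjusted p = 0.019). It no longer passed without wild-type array B (-0.51) or mRID array A (-0.56), or in the authors' processed values (-0.38). Ager, the receptor that marks type I cells, read 12.05 and 12.10 in mRID against 12.29 and 12.36 in wild type (difference -0.25, adjusted p = 0.247). Aqp5, the water channel of type I cells, read 9.99 and 9.91 in mRID against 10.44 and 10.20 in wild type (difference -0.37, adjusted p = 0.0688). Pdpn, podoplanin, differed by -0.15. The groups did not overlap in any of the 3, yet none passed the test. The basement membrane collagens Col4a3 and Col4a4, which type I cells make, differed by -0.55 and -0.41, with adjusted p under the threshold and less than 1.5-fold. The exception among the 16 was the growth factor binding protein gene Igfbp2, which read 7.56 and 7.34 in mRID against 6.76 and 7.0 in wild type (difference 0.57, adjusted p = 0.0307), again less than 1.5-fold. Hopx was detected on none of the 4 arrays. With median scaling the list median was -0.33 and all genes moved to a median of -0.08.

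Of 22 tested type II pneumocyte and surfactant genes 1 rose in mRID and 0 fell. A positive difference was found in 17, against 52.4% of all genes, and the median was 0.09. Pgc, the protease precursor progastricsin made by type II cells, read 9.33 and 9.41 in mRID against 8.68 and 8.87 in wild type (difference 0.60, adjusted p = 0.00573). It lay on the edge of 1.5-fold and fell short without wild-type array A (0.50) or mRID array B (0.56), and in the authors' processed values (0.55). Chil1 (0.54) and Sftpb (0.36), the gene of surfactant protein B, had adjusted p under 0.05 at less than 1.5-fold, and the surfactant genes Sftpa1, Sftpc and Sftpd differed by 0.07, 0.14 and 0.02. Sox9 and Foxp2, transcription factors of the distal tips of the growing airway tree, differed by 0.51 and 0.52, while 0 of 22 lung epithelial transcription factors passed and Nkx2-1 differed by -0.01. Among 33 morphogen and mesenchymal regulators 1 passed, Wnt2, a ligand of the lung mesenchyme, with 10.53 and 10.40 in mRID against 9.93 and 9.78 in wild type (difference 0.61). Wnt2 no longer passed without wild-type array B (0.53) or mRID array A (0.54), or in the authors' processed values (0.57). Of 16 genes of lung liquid transport 0 passed, with the 3 sodium channel subunits Scnn1a, Scnn1b and Scnn1g at -0.26, -0.26 and -0.27.

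Replication-dependent histone genes are transcribed in S phase. Of 35 tested members 9 rose in mRID and 1 fell, against 0.449% of all genes higher and 1.19% lower. The median of 0.40 was the highest of the 44 lists. H2ac11 read 7.93 and 7.86 in mRID against 6.91 and 7.01 in wild type (difference 0.93, SE 0.09, adjusted p = 0.000311), and H2bc9 read 7.26 and 7.31 in mRID against 6.41 and 6.49 in wild type (difference 0.84). Both mRID arrays lay above both wild-type arrays in 29 of the 35 genes, against 26.3% of all genes. The 9 were spread over the core histones: 1 of 12 H2A genes, 4 of 10 H2B genes, 2 of 5 H3 genes and 2 of 6 H4 genes rose. The exception was H2bc8, which read 4.67 and 4.40 in mRID against 5.28 and 5.5 in wild type (difference -0.86) and was detected on 1 mRID array. Histone genes are near copies of each other, so a probe may read several of them. The octamer ATTTGCAT was also searched in their promoter windows. Of 33 tested members with an entry 10 (30.3%) held it, against 1.70% of all tested genes, a share that describes the list. Of the 9 passed members with an entry 1 held it, H2bc8, the member that fell. Without wild-type array A the H4c9 difference of 0.77 became 0.62, and H4c9 no longer passed without that array or mRID array B. H3c6 (0.62) no longer passed without wild-type array B or mRID array B, and H2bc11 (0.64) without mRID array A (0.53). The number of histone genes that rose was 7 to 13 over the 4 sets of 3 arrays, 7 without mRID array B and 13 without mRID array A, and it was 3 in the authors' processed values, where H2bc8 did not pass either (-0.43).

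Of 38 DNA replication genes 33 had a positive difference, against 52.4% of all genes, and the median was 0.28. Both mRID arrays lay above both wild-type arrays in 31, which held for 26.3% of all genes. Mcm6, a subunit of the replicative helicase, read 10.66 and 10.83 in mRID against 9.92 and 9.92 in wild type (difference 0.83, SE 0.09, adjusted p = 0.000523) and was the 1 member that passed. Its 3 other probes gave 0.40, 0.38 and 0.48, and with the mean of all probes it differed by 0.52 and did not pass. Helicase partners Mcm3 (0.54), Mcm5 (0.42) and Mcm2 (0.39), the loader Mcm10 (0.52) and the polymerase gene Pole (0.50) were on the same side at less than 1.5-fold. The upstream sequence of Mcm6 is shown because E2F factors are known to switch on replication genes, with matches to TTTNGCGC on either strand in capitals.
Mcm6, chr1:128359706-128359955, minus strand: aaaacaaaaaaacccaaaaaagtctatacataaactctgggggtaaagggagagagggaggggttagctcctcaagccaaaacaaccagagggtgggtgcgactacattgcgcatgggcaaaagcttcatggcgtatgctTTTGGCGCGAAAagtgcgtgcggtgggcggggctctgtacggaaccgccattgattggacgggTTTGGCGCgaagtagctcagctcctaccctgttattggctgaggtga
The 3 matches lie 110, 106 and 47 bases before the start, the first pair overlapping. Of 32 tested replication genes with a promoter entry 6 (18.8%) held such a match, against 2.70% of all tested genes. The list was drawn up from known replication genes, so this share too describes the list and is not a result of the arrays. Of 36 mitosis genes 31 had a positive difference, against 52.4% of all genes, and the median was 0.24. Plk1, the mitotic kinase, read 7.93 and 7.98 in mRID against 7.12 and 7.12 in wild type (difference 0.84, SE 0.08, adjusted p = 0.000289) and was the 1 that passed, with Kif2c (0.50), Cdc20 (0.45) and Foxm1 (0.42) behind it. Gmnn, the replication inhibitor geminin, was on the lower side (-0.38). Of 11 cell cycle inhibitors and cyclins 0 passed, with Ccnd2, cyclin D2, at 0.49.

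**Figure D3:**
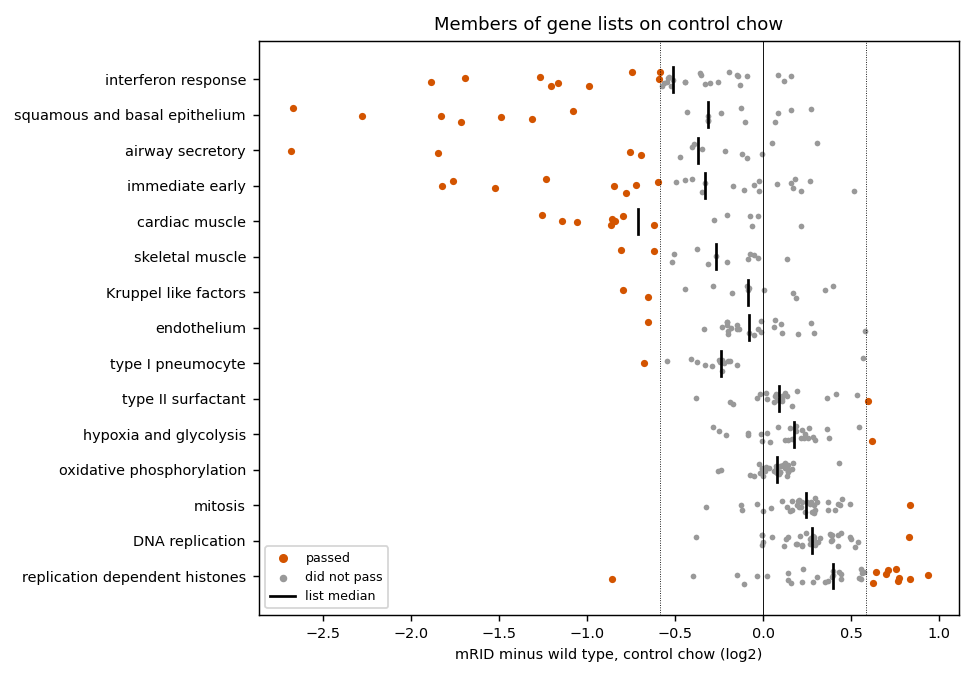
Difference of every tested member (x axis, mRID minus wild type in log2) for 15 gene lists, 1 row for each list. Orange points passed, grey points did not, black bars are list medians and dotted lines mark 1.5-fold; interferon, squamous, secretory, immediate early and cardiac lists reach far to the left, while the medians of the histone, replication and mitosis lists sit right of zero.

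The 2 genes that were at least 2-fold higher in mRID were Angptl4 and Crh. Angptl4, a secreted inhibitor of lipoprotein lipase and a target of PPAR receptors, read 8.27 and 8.33 in mRID against 6.73 and 6.58 in wild type. It was 3.14-fold higher (difference 1.65, SE 0.09, adjusted p = 5.03e-06). Among 21 PPAR and fatty acid oxidation genes Acot1, an acyl-CoA thioesterase, also rose (difference 0.69), but it no longer passed without wild-type array B (0.54), mRID array A (0.59) or mRID array B (0.80). The list median was 0.03 (-0.03 without mRID array A), the classic targets gave small values, Pdk4 -0.15, Plin2 0.05 and Cpt1b -0.08, and 2 of the 21 rose. Fabp3, the heart-type fatty acid binding protein, was lower by less than 1.5-fold (-0.56). Acaa1b, a peroxisomal thiolase outside the list, rose by 0.77, but differed by 0.42 in the authors' processed values and did not pass there. Crh, the hormone that drives the fetal stress axis, read 6.40 and 5.78 in mRID against 4.78 and 4.61 in wild type (difference 1.40, SE 0.26, adjusted p = 0.0134). The mRID arrays were far apart for Crh, and it no longer passed without wild-type array A (1.45), wild-type array B (1.32) or mRID array A (1.10). Among 18 tested genes of the glucocorticoid response and its hormone axis, 13 had a negative difference, against 4780 of the 10033 genes. The median was -0.12 (-0.21 without wild-type array A). Crh, the 1 member that rose, belongs to this list, Dusp1 fell by 0.78, and Sgk1 (-0.44), Tsc22d3 (-0.43) and Crispld2 (-0.49) did not reach 1.5-fold. Rbp7, a retinoid-binding protein, read 5.67 and 5.73 in mRID against 5.03 and 4.88 in wild type (difference 0.75) and was the 1 of 12 retinoid genes that passed; it did not pass without wild-type array B (0.67) or in the authors' processed values (0.39).

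Of 28 tested genes of hypoxia and glycolysis 21 were positive, against 52.4% of all genes, 1 rose and 0 fell, with a median of 0.18. The median was 0.11 without wild-type array B and 0.09 with median scaling, and 0 members passed with median scaling or in the authors' processed values. P4ha1, a collagen prolyl hydroxylase, rose by 0.62 and passed, though not without mRID array B (0.55), and, at less than 1.5-fold, the oxygen sensor Egln3 (0.54), Tpi1 (0.37) and the glucose transporter Slc2a1 (0.36) were positive. Vegfa (-0.25) and Adm (-0.29) went the other way. Of 35 oxidative phosphorylation genes 0 passed (median 0.08), of 26 sterol and fatty acid synthesis genes 0 (median 0.10, and 0.06 without mRID array A) and of 22 heat shock genes 0 (median 0.01).

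Of 13 tested Kruppel-like factors 2 fell in mRID, against 1.19% of all genes, and 0 rose. Klf2, the factor that endothelial cells switch on under flow, read 9.96 and 9.98 in mRID against 10.69 and 10.84 in wild type (difference -0.80, SE 0.09, adjusted p = 0.000719). Klf4, its close relative, fell by 0.65, and its mean over 3 probes of -0.58 was just short of 1.5-fold. The list of 8 tested endothelial genes linked to Klf2 holds Klf2 and Klf4 themselves, and these were the 2 that fell. Its median of -0.32 includes both factors. Thbd, thrombomodulin, differed by -0.44 and Nos3, the endothelial nitric oxide synthase, by 0.10. Klf9, a factor known to respond to thyroid hormone, read 10.40 and 10.57 in mRID against 10.57 and 10.57 in wild type, and the groups overlapped. Of 25 endothelial genes 1 fell, Car4, the carbonic anhydrase of lung capillaries, with 8.85 and 9.02 in mRID against 9.55 and 9.62 in wild type (difference -0.65), short of 1.5-fold without mRID array A (-0.56). The pan-endothelial genes Pecam1 (-0.05) and Cdh5 (-0.21) did not pass.

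In the connective tissue, 3 of 37 matrix genes fell, against 1.19% of all genes, and 0 rose. Mfap5, a microfibril protein, read 6.04 and 6.19 in mRID against 7.51 and 7.38 in wild type (difference -1.33, SE 0.10), Lum, a collagen-binding proteoglycan, read 6.5 and 6.74 in mRID against 7.5 and 7.69 in wild type (difference -0.98), and Col5a2, a fibrillar collagen, fell by 0.88. The list median was -0.07 and the bulk collagens Col1a1, Col1a2 and Col3a1 differed by 0.10, -0.01 and 0.01. Eln, elastin, differed by -0.41. Actg2, the visceral smooth muscle actin, fell by 0.77, the 1 of 13 smooth muscle genes that passed, and the smooth muscle myosin Myh11 differed by -0.55. Igfbp3 read 5.43 and 5.36 in mRID against 6.19 and 6.42 in wild type (difference -0.91), the 1 of 15 insulin-like growth factor genes that passed. In the authors' processed values it differed by -0.55 and did not pass. Of 28 genes of oxidative stress and foreign compounds 2 fell, the transferase gene Gsto1 (-0.93) and Cyp2b10, whose lost calls are given with the type I markers.

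The embryonic globins Hbb-y, with 7.55 and 7.64 in mRID against 6.67 and 6.77 in wild type (difference 0.87), and Hba-x (difference 0.85) rose, while the later globins Hbb-b2 (-0.01) and Hba-a1 (0.04) did not pass. Hba-x no longer passed without wild-type array A (0.66) or mRID array A (0.72), or in the authors' processed values (0.45). These were the 2 of 13 erythroid genes that passed, and the list median was 0.26 (0.07 to 0.30 when 1 array was left out). Cd74, the invariant chain of MHC class II and the 1 of 14 antigen presentation genes that passed, rose with 8.83 and 8.89 in mRID against 8.16 and 8.18 in wild type (difference 0.69), with the class II genes H2-Eb1 at 0.50, H2-Aa at 0.25 and H2-Ab1 at 0.24. The class I genes H2-D1 and H2-K1, their transporter Tap1 and B2m were negative, at -0.56, -0.44, -0.51 and -0.30, and none of them passed. Saa3, an acute phase protein, rose by 0.87, and the neutrophil granule genes Ltf (-0.77) and Camp (-0.66) fell, Camp losing its call without wild-type array A (-0.53), mRID array A (-0.64) or mRID array B (-0.70), and in the authors' processed values (-0.32). Of 17 lung macrophage genes 0 passed (median -0.16, and -0.08 without mRID array B), and of 8 lymphoid genes 0 (median -0.09, and -0.14 without mRID array B). Over the 41 lists with at least 7 tested members, leaving out 1 array moved a median by at most 0.19 and changed its sign in 8 lists.

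Of 27 corepressor and histone deacetylase genes, the machinery that the mutation addresses, 0 passed, with a median of 0.03, and Hdac3, the deacetylase of these complexes, read 10.23 and 10.27 in mRID against 10.09 and 10.11 in wild type (difference 0.15, adjusted p = 0.335). Ncor1, a corepressor gene, had no named probe. Thra, the thyroid hormone receptor alpha gene, was detected on 1 mRID array and both wild-type arrays and differed by -0.12, and Thrb was detected on none of the 4 arrays. Of 21 nuclear receptor genes 0 passed. Among 13 genes known to answer thyroid hormone, Myh6 fell and 0 rose, and the median was 0.09. Myh6 also belongs to the heart muscle list, where it is 1 of the 8 that fell. Hr (0.09), Gpd2 (0.30) and Mbp (0.30) did not pass, and the deiodinase genes Dio1 and Dio2 were detected on none of the 4 arrays. The 4 sex-linked genes Xist, Kdm5d, Eif2s3y and Uty differed by 0.14 or less in size, and 0 passed. None of the tested members passed either in the lists of pericytes and mesothelium (15 tested), the circadian clock (14), thyroid hormone receptors and metabolism (7), liver (2) and neuroendocrine and neural cells (2).

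Of the leading genes outside any list, several fell by over 2-fold. Nccrp1 (-1.62) and Ctse, the gene of the protease cathepsin E (-1.49), were among them, each detected on 1 of 2 mRID arrays. Lypd3 was another, at least 2.34-fold lower and undetected on both mRID arrays. Paip1, a translation factor that binds the poly(A)-binding protein, read 7.46 and 7.36 in mRID against 8.90 and 8.80 in wild type (difference -1.44). Itga9, an integrin subunit, read 7.63 and 7.62 in mRID against 8.97 and 9.0 in wild type (difference -1.36). In both genes the arrays of a group lay far closer to each other than the groups did. Ankrd1, a striated muscle and stress gene, fell by 1.30. On the higher side, Aspg, an asparaginase, read 7.13 and 6.98 in mRID against 5.96 and 6.20 in wild type (difference 0.98). Khsrp (0.84), Plac1 (0.84), Epb41l5 (0.80), the tight junction gene Cldn6 (0.80) and Chodl (0.71) followed. Khsrp (0.54), Plac1 (0.55), Epb41l5 (0.45) and Chodl (0.48) did not pass in the authors' processed values. Among 864 unnamed probes in the data, 13 passed, 6 higher and 7 lower.

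The same genotypes were also compared with PTU, on 4 other arrays and 2 other RNA samples, so that comparison shares no array with the one on control chow, although all 8 arrays were normalized together. With PTU 404 genes passed, 4.03%, of which 338 were higher and 66 lower in mRID. Of the 164 genes that passed on control chow, 46 (28.0%) kept the sign of their difference with PTU, against 38.2% of all genes. Both diets gave a pass in the same direction for 6 genes and in opposite directions for 40. The 6 were Epb41l5, H2ac11, Lum, Prf1, Sox21 and Zxda, the last 3 named after their values were seen. Lum read 5.18 and 5.15 in mRID against 6.40 and 6.41 in wild type with PTU (difference -1.24), and Epb41l5 read 6.41 and 6.48 in mRID against 4.92 and 4.90 in wild type (difference 1.53). Both differences were larger in size with PTU than on control chow.

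Ifit3 with PTU read 7.82 and 7.78 in mRID against 6.5 and 6.57 in wild type (difference 1.27), opposite to control chow. All 9 interferon genes that fell on control chow passed with the opposite sign with PTU, and 30 of 31 members were positive there, with a median of 0.45. Fos with PTU read 9.62 and 9.70 in mRID against 8.67 and 8.70 in wild type (difference 0.98), and 4 of the 8 immediate early genes that fell passed as higher. Angptl4 with PTU read 6.89 and 7.07 in mRID against 8.53 and 8.53 in wild type (difference -1.55). Crh with PTU read 6.02 and 6.77 in mRID against 7.48 and 8.04 in wild type (difference -1.37). The order of the genotypes was thus turned round for these genes. Krt13 and Scgb3a1 behaved otherwise. Krt13 with PTU read 4.41 and 4.22 in mRID against 4.23 and 4.29 in wild type (difference 0.05), and Scgb3a1 read 5.55 and 5.58 in mRID against 5.65 and 5.33 in wild type (difference 0.08). Krt13 was detected on none of the 4 arrays with PTU and Scgb3a1 on all of them, and the groups overlapped in both.

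**Figure D4:**
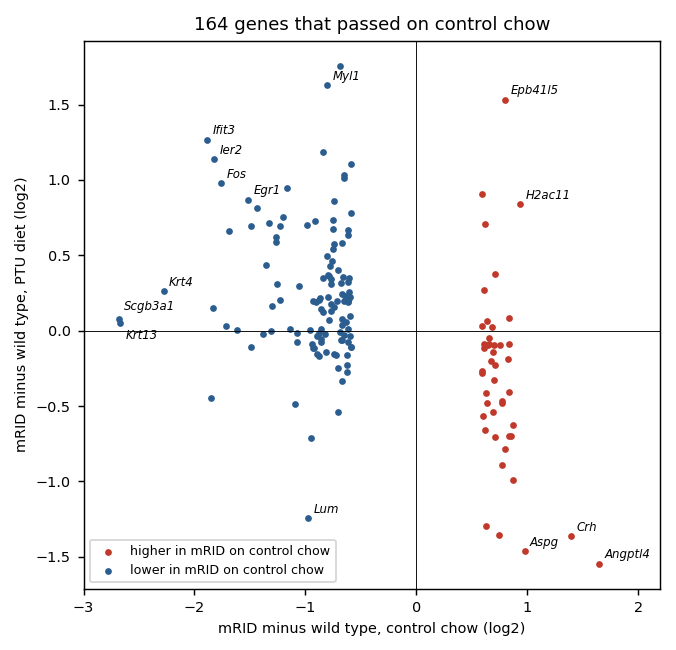
Difference between mRID and wild type with PTU (y axis, log2) against that on control chow (x axis, log2) for the 164 genes that passed on control chow, red where higher and blue where lower in mRID. Of the 45 higher genes 10 and of the 119 lower genes 36 keep their sign with PTU; Angptl4 and Crh lie at the lower right, Ifit3 and Fos at the upper left, and Krt13 and Scgb3a1 near zero on the y axis. The labelled genes were picked after their values were seen.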

How the data were processed

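RNA from E18.5 lungs was measured on 1-colour Illumina bead arrays. Per the labels' protocols, RNA was extracted with Trizol, cleaned on RNeasy columns with DNase I and labelled as biotin cRNA with an Ambion MessageAmp kit. GenomeStudio is named in the submitters' processing notes, with no version. Per the file headers, the authors deposited the average signal intensity and a detection p-value for each probe on each array, not normalized, and a second table of processed intensity values whose normalization is not stated.

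The non-normalized intensities of all 8 arrays were corrected and quantile normalized with neqc (limma 3.58.1, R 4.3.3; offset 16) and are on the log2 scale. Of 25697 probes 23978 had 1 gene symbol in the platform annotation and 1719 were not listed. Probes with a detection p under 0.05 on both arrays of either control-chow group were kept, and where a gene had several kept probes, the brightest on average stood for it. A mean per group was fitted with lmFit and eBayes over the 8 arrays, and p-values were Benjamini-Hochberg adjusted over 10033 genes. A gene passed at an adjusted p under 0.05 and at least 1.5-fold. The number of arrays limits the precision. The script was tested on simulated data.

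The comparison and the 44 gene lists were chosen with earlier results of these data known. The naming rule took the 20 largest differences in each direction among genes that passed, and every list member that passed. It also took the 4 tested members of each list with the largest differences. Always included were Ncor1, Hdac3, Thra, Thrb, Klf2, Klf9, Ager, Aqp5, Pdpn, Sftpb and Sftpc. Not every gene of the rule is described, and H2bc15 and H3c1, which passed, are only counted. A further gene of this rule is not reported here. Other list members given with values were chosen after their values were seen. Alternatives covered the background correction, offset, normalization, detection filter, probe summary, thresholds and arrays. For the setting named the authors' processed values, the offset of 16 was added to the deposited intensities before log2. The part of this offset in the smaller differences of that setting was not tested. Promoter windows are those of RefSeq on GRCm38.p6, matched by symbol.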

Additional observations from a re-analysis of the deposited data

Results flagged for a closer look

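The difference between mRID and wild type on control chow was set against the same difference with PTU, in the fit over all 8 arrays. Of the 164 genes that passed on control chow, 143 had a genotype by diet term that passed the test, at an adjusted p under 0.05 and at least 1.5-fold. The genes were picked by the control-chow difference, which is 1 side of that term, so this count is a description and carries no support of its own. The share of all tested genes with such a term is not given beside it, so 143 cannot be read as many or few. Of all genes, 38.2% kept the sign of their difference with PTU, against 28.0% of the 164. For the leading genes of the report the term is given here as the control-chow difference minus the PTU difference, on the log2 scale. Among genes higher in mRID on control chow, and Epb41l5 aside, the term was positive. It was largest in the lipase inhibitor Angptl4 and the hormone gene Crh. The values were Angptl4 3.20, Crh 2.76, Aspg 2.44, Rbp7 2.11, Hbb-y 1.86, Acaa1b 1.66, Cldn6 1.58, Hba-x 1.56, Plac1 1.54, Saa3 1.5, Chodl 1.42, H4c12 1.25, Khsrp 1.25, H4c9 1.23, Mcm6 1.02, Plk1 0.92, H2bc7 0.85 and H2bc9 0.75. Among genes lower in mRID on control chow the term was negative, and it was largest in the antiviral gene Ifit3 and the immediate early gene Ier2. The values, which include Epb41l5, were Ifit3 -3.15, Ier2 -2.96, Scgb3a1 -2.76, Fos -2.74, Krt13 -2.72, Krt4 -2.54, Egr1 -2.39, Ifi27l2a -2.35, Paip1 -2.25, Krt14 -2.19, Mfap5 -2.04, Psca -1.98, Itga9 -1.80, Krt17 -1.75, Nccrp1 -1.62, Ankrd1 -1.46, Reg3g -1.40, Ctse -1.38 and Epb41l5 -0.73. Lypd3 and Trp63 were undetected on both mRID arrays on control chow and on all 4 arrays with PTU, so their fitted terms of -1.36 and -1.31 give no measured size. Krt13, Krt17, Nccrp1 and Ctse were undetected on all 4 arrays with PTU, and Krt4, Krt14 and Psca on both wild-type arrays with PTU, so their terms also rest in part on signal at background. Of the 40 leading genes, H2ac11 did not pass this test (term 0.10).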

How the results depend on the processing

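Of the 164 genes that passed (45 higher and 119 lower in mRID), fewer passed in other scalings: 80 (16 higher, 64 lower) in the authors' processed values, 82 (17 higher, 65 lower) without background correction and 82 (17 higher, 65 lower) with an offset of 50. With median scaling 198 passed, 26 higher and 172 lower, and the median over all genes was -0.08. A threshold of 2-fold left 34 genes (2 higher, 32 lower), and no fold threshold gave 531 (236 higher, 295 lower). Leaving out each control-chow array in turn gave 146 to 174 genes, 36 to 53 higher and 109 to 121 lower. A replicate block on the array letter gave 165 genes and moved no count by over 1.5 times. The labels do not say whether the letters pair arrays across groups, and the deviations of arrays with the same letter correlated at -0.06 to 0.12. The 4 RNA samples fitted by genotype and diet, with 1 residual degree of freedom, gave 0 genes, 0 higher and 0 lower, with 248 at an unadjusted p under 0.05 and a lowest adjusted p of 0.494. The cause of these moves was not tested. Stricter detection, no detection filter, detection in both groups, the mean of probes, the fit of 4 arrays and all probes gave counts of 143 to 215. Of the 86 passed genes that met the naming rule, 45 passed in all 14 settings run on genes. Another 5 passed in the 13 settings that tested them, and 0 reversed. Passed genes named outside that rule are not in these counts. The list of fallen squamous genes held 7 members and the fallen interferon list 6 to 15 over the normalizations. With 1 RNA sample for each group, variation between embryos is not measured.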

Other observations

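Among genes outside the lists and chosen after their values were seen, further striated muscle genes were lower in mRID on control chow and passed: the muscle LIM protein gene Csrp3 (-1.27), the muscle cytochrome oxidase subunit Cox6a2 (-0.96), the titin gene Ttn (-0.84) and the alpha-actinin gene Actn2 (-0.81). The epithelial genes Pkp1 (-0.92), a desmosomal plakophilin, and Scel (-0.75), sciellin of stratified epithelium, also passed as lower. So did the interferon-linked genes Lgals3bp (-1.23), Ifi47 (-0.77) and H2-T23 (-0.62). Inmt, a methyltransferase abundant in lung, fell by 1.09, and Odc1, the first enzyme of polyamine synthesis, rose by 0.59.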
